A study of Schmidtea mediterranea with 15 samples.

Results

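The second day after gamma irradiation was examined in whole planarians by comparing transcript levels at 48 h with those at 24 h. All worms belonged to the CIW4 clonal line of Schmidtea mediterranea, a freshwater flatworm, and were starved before use. Both groups had received 6000 rad of gamma radiation, and each was represented by 3 libraries of polyA RNA from whole worm tissue. The same series holds 3 unirradiated libraries (0 h) and 3 libraries each at 72 and 96 h after the same dose, which are used here as reference points. The authors' table lists 26671 transcript models with their RPKM, a level that allows for both the length of a model and the size of the library. The models described are the 19647 (73.66% of the table) that reached 1 RPKM in at least 3 of the 6 libraries at 24 and 48 h. The labels hold no unirradiated worms kept for 24 or 48 h, so radiation, elapsed time and any batch that goes with them cannot be told apart. How many worms went into a library is not given in the sources used here.

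Planarians carry neoblasts, a population of dividing stem cells that supplies new cells to every tissue and is known to be lost soon after a strong dose of ionising radiation. Cells that had left the neoblast pool before the exposure, such as the maturing precursors of the epidermis, are not dividing and are known to disappear later, as they mature without being replaced. Levels in whole worms after irradiation are therefore known to change in steps, with transcripts of stem cells going before those of their descendants. In RNA from whole worms, fewer cells of a type and less RNA per cell cannot be told apart. The table pairs no model with a gene name, so the models are described by their change, level and length, no cell type is attached to any of them, and the whole worm label was not checked against markers.

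Reads were worked out from the steps in the RPKM values and came to 16435841 to 24765138 per library at 24 h and to 19917638 to 29148526 at 48 h. The described models took 99.67% to 99.69% of these reads. Of them, 17624 reached 1 RPKM in all 6 libraries and 605 in exactly 3, the latter with a median of 1.02 RPKM. A further 719 models reached it in exactly 2 libraries, with a median of 0.887 RPKM, and were left out. In 54 models the minimum was met by the 3 libraries at 24 h and by none at 48 h, and in 48 the reverse held. Such models had to differ between the times to enter, and 34 of them were called. Of these, 21 had entered only through the 24 h libraries and the rest only through those at 48 h. Replicates of a group differed by a median SD of 0.0877 at 24 h and 0.0858 at 48 h on the log2 scale. The leading component of the 6 libraries held 42.61% of the variance and set the 24 h libraries (-18.56, -14.4 and -15.42) apart from those at 48 h (13.61, 15.34 and 19.44). The next component held 17.16% and set 24 h replicate 1 (17.84) apart from 24 h replicate 3 (-17.69), while the 48 h libraries lay between -0.62 and 1.91. The third component held 15.56% and set 48 h replicate 2 (16.61) apart from 48 h replicate 3 (-13.11).

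The second day brought many small changes in both directions and a short list of very large falls. In total 2855 models (14.5% of the 19647) were called, meaning a limma adjusted p below 0.05 in a fit to all 15 libraries. At 48 h 1478 models (7.52%) were higher and 1377 (7.01%) were lower than at 24 h. Most of these changes were slight: 90.1% of the calls were under 1.5-fold and 48.4% under 1.2-fold. Among the larger ones, 208 models rose at least 1.5-fold (1.06%) and 74 fell as much (0.377%). At 2-fold or more 13 models rose (0.0662%) and 23 fell (0.117%). Of those 23, 7 reached the minimum only through the 24 h libraries and so had to fall to be included, which leaves 16, while all 13 rises stood at 1 RPKM or more in at least 1 library of each time. Which direction had more models of this size depended on 24 h replicate 2, since without it there were 31 rises and 21 falls. With any other single library left out, falls outnumbered rises. Falls of at least 8-fold were found in 10 models (0.0509%), whereas the largest called rise was 1.95 on the log2 scale. Changes are differences of log2(RPKM + 0.5), a scale on which those of weakly expressed models come out too small. The median change over the 19647 models was 0.00, with quartiles of -0.11 and 0.12. The 3 values at one time lay wholly beyond the 3 at the other in 6455 models (32.9%), of which 2830 were called.

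**Figure D1:**
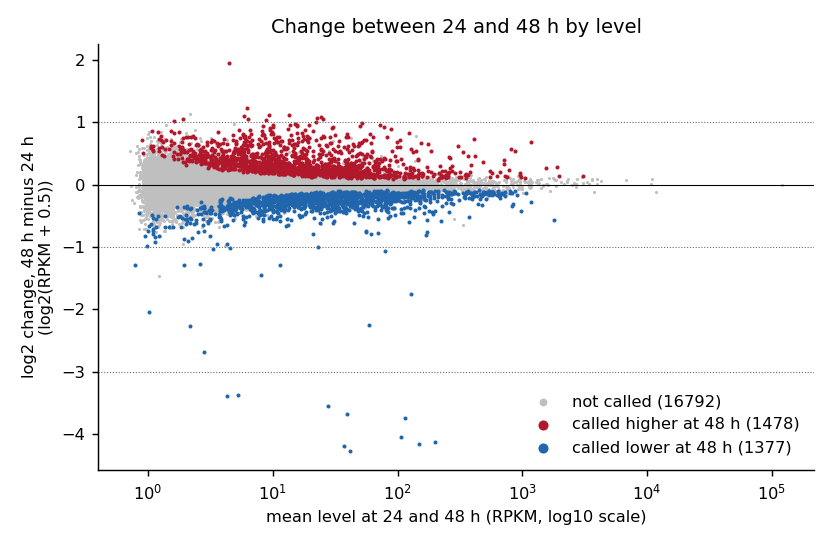
Each point is 1 of the 19647 models, placed by its mean level at 24 and 48 h (RPKM, log10 scale) and its log2 change from 24 to 48 h on the log2(RPKM + 0.5) scale, with red for the 1478 called higher, blue for the 1377 called lower and dotted lines at 2-fold and at the 8-fold fall. The 10 falls beyond 8-fold stand below all other models, and the largest called rise reaches 1.95.

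These counts rest on 3 libraries a time, and nothing in the labels says that the 3 came from separate cultures. The p-values thus weigh a change only against the spread of samples within times over all 15 libraries, and that spread may be technical. Without 48 h replicate 3 the calls numbered 1829, with 961 higher and 868 lower, and without 24 h replicate 2 the lower calls numbered 899. With limma-voom on the reads, 2073 models were called lower and 1602 higher.

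The 2 models with the largest falls among those that reached 5 RPKM and did not overlap between the times were SMED30020396 and SMED30035904. SMED30020396, a model of 571 bases, stood at 72.01, 86.62 and 82.01 RPKM in the 24 h libraries and at 4.119, 3.031 and 3.944 RPKM in the 48 h libraries. All 3 values at 48 h lay more than an order of magnitude below all 3 at 24 h, and they rest on 34 to 65 reads a library. Its mean went from 80.2 ± 7.47 to 3.70 ± 0.584 RPKM (SD, n = 3), or 4.61% of the 24 h level. On the log2 scale this was -4.27 with an SE of 0.14 (limma adjusted p = 3.03e-11). Unirradiated worms held 281 ± 10.4 RPKM of this model, and the later levels were 0.814 ± 0.314 RPKM at 72 h and 0.75 ± 0.156 RPKM at 96 h. Of the drop over the 4 days, the second day thus carried the largest part on the log2 scale, after -1.81 on the day before and ahead of -1.69 on the day after.

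SMED30035904, with 728 bases, followed closely. It measured 67.95, 72.76 and 73.64 RPKM at 24 h and 4.343, 2.867 and 3.188 RPKM at 48 h, again with no overlap. The mean moved from 71.5 ± 3.06 to 3.47 ± 0.776 RPKM (SD, n = 3), 4.85% of the 24 h level. The log2 change was -4.20 with an SE of 0.13 (limma adjusted p = 7.24e-12). Unirradiated worms had 293.7 ± 6.02 RPKM of it, while 0.468 ± 0.0529 RPKM were left at 72 h and 0.29 ± 0.145 RPKM at 96 h. The last of these levels comes from 2 to 10 reads a library. Whether this model shares reads with SMED30020396 cannot be told from the table.

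The 10 models that fell at least 8-fold are described next. The models ranked 9 and 10 among them stood below 1 RPKM in all 3 libraries at 48 h and entered only through the 24 h libraries. Each of the 10 kept between 4.06% and 7.68% of its 24 h level at 48 h, with a median of 5.52%, and their 24 h levels spanned 8.19 to 376 RPKM. Without ranks 9 and 10 the other 8 kept 4.61% to 7.68%, with 24 h levels of 51.5 to 376 RPKM. The log2 changes of the 10 ran from -4.27 to -3.37. All 10 had stood lower at 24 h than at 0 h, at 24.3% to 50.7% of the 0 h mean, and on the log2 scale the second day's fall was the larger step of the 2. By 96 h they were at 0.0987% to 0.749% of the 0 h mean. Most were short: 9 of the 10 were between 506 and 737 bases long and the remaining model had 1588, against a median of 1183 bases for all described models. Together they took 0.09407%, 0.09372% and 0.09262% of the reads of the 24 h libraries and 0.006239%, 0.005412% and 0.004933% of those at 48 h. The 0 h libraries had held 0.233% ± 0.00418 (SD, n = 3) and the 72 h libraries 0.000669% ± 0.0000328. The 10 were chosen by their fall, and these shares describe it. The count was 10 or 11 when any single library was left out.

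The other 13 models with a fall of at least 2-fold were more mixed, and 5 of them entered only through the 24 h libraries. The models ranked 11 and 14 kept 7.44% and 4.95% of their mean 24 h RPKM, within the range of the 10 above. At their low levels the added 0.5 RPKM brings the log2 changes to -2.69 and -2.04, and with 0.1 RPKM added 12 models passed 8-fold. The log2 changes of the 13 ran from -2.69 to -1.02 and their lengths from 124 to 2730 bases. In 10 of them the 24 h mean lay below the 0 h mean. The model ranked 19 in the list of falls had gone from 143 RPKM at 0 h to 2.98 at 24 h and then to 0.926 at 48 h and 0.903 at 72 h, so most of its loss had come before 24 h. The model ranked 21 took the opposite course, falling from 140 RPKM in unirradiated worms to 108 by 24 h, then to 51.5 by 48 h and to 34.5 RPKM by 96 h.

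The remaining 3 of these 13 had stood above the 0 h mean at 24 h. The model ranked 15 measured 183.2, 210.2 and 197.3 RPKM at 24 h and 60.71, 60 and 53.83 RPKM at 48 h, against a mean of 56.2 RPKM at 0 h. It was back near the unirradiated level at 48 h, and its log2 change of -1.75 (SE 0.05, limma adjusted p = 7.63e-12) was the only one among the 3 with little spread. The model ranked 13, of 124 bases, varied widely at 24 h, with 200.7, 83.85 and 22.47 RPKM, and lay at 16.17, 16.42 and 12.29 RPKM at 48 h. The one ranked 16 did the same, with 22.76, 9.906 and 4.677 RPKM at 24 h and 3.776, 2.78 and 3.915 RPKM at 48 h. For these last 2 models the size of the fall depends on which 24 h library is taken, and their adjusted p (limma) was 0.0175 and 0.0453.

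**Figure D2:**
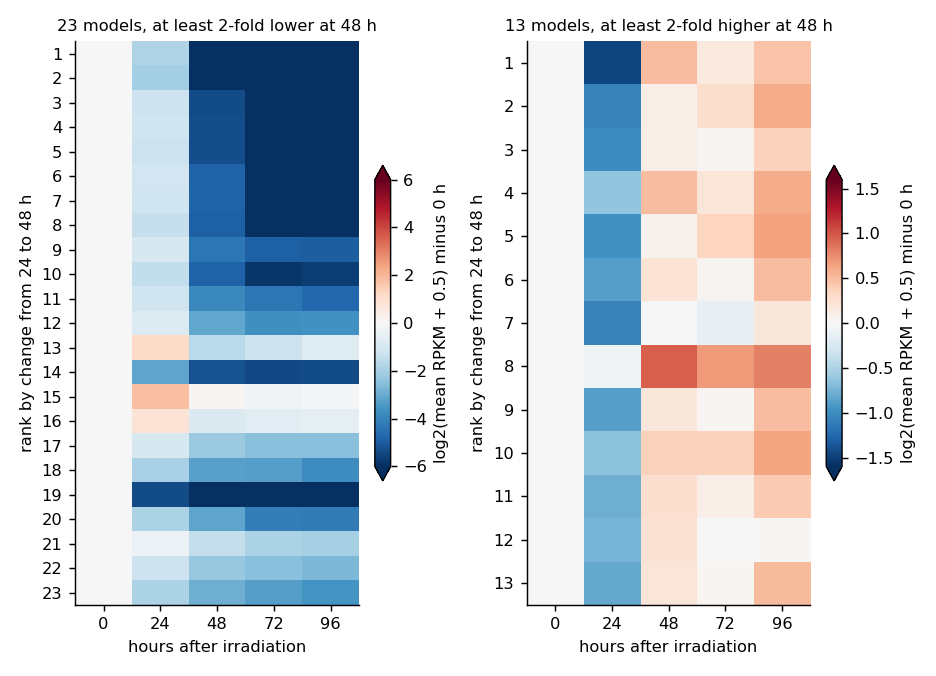
Rows are the 23 models at least 2-fold lower (left) and the 13 at least 2-fold higher (right) at 48 h than at 24 h, ranked by that change. Colours give log2(mean RPKM + 0.5) at each time minus the value at 0 h, with a separate scale for each panel whose end colours also take in values beyond it. On the left the upper 12 rows darken between 24 and 48 h and stay dark, while on the right most rows are blue at 24 h and pale or red from 48 h on.

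Rises were led by SMED30010476 and SMED30013479 under the same conditions. SMED30010476, with 1727 bases, stood at 1.132, 1.511 and 1.964 RPKM at 24 h and at 9.488, 7.633 and 5.216 RPKM at 48 h. The groups did not overlap, although the 48 h values were widely spread. Its mean rose 4.85-fold, from 1.54 ± 0.417 to 7.45 ± 2.14 RPKM (SD, n = 3). On the log2 scale it rose by 1.95 with an SE of 0.22 (limma adjusted p = 3.68e-05). These values rest on 33 to 64 reads a library at 24 h and on 259 to 425 at 48 h. Unirradiated worms stood at 5.13 ± 0.123 RPKM, and the 72 and 96 h libraries at 5.77 ± 1.01 and 7.22 ± 2.37 RPKM. The level at 24 h was thus the low point of the series, and neither the 72 h nor the 96 h level was called different from 0 h (limma adjusted p = 0.626 and 0.134).

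SMED30013479, of 2070 bases, measured 2.089, 4.826 and 3.98 RPKM at 24 h and 8.586, 8.262 and 9.707 RPKM at 48 h. Every 48 h value was above every 24 h value, and 24 h replicate 1 was the lowest of all. The mean rose 2.44-fold, from 3.63 ± 1.40 to 8.85 ± 0.758 RPKM (SD, n = 3), which is 1.24 on the log2 scale with an SE of 0.19 (limma adjusted p = 0.000427). Without 24 h replicate 1 the change was 0.93. At 0 h the level was 8.19 ± 0.608 RPKM, and at 72 and 96 h it was 10.05 ± 1.14 and 12.65 ± 1.51 RPKM. Worms at 96 h were above unirradiated ones by 0.59 on the log2 scale, with an SE of 0.19 (limma adjusted p = 0.0165). The rise ranked 5, of 2091 bases, had similar values. It measured 1.927, 4.895 and 4.346 RPKM at 24 h and 7.965, 7.692 and 8.616 RPKM at 48 h. Whether that model shares reads with SMED30013479 cannot be told from the values.

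**Figure D3:**
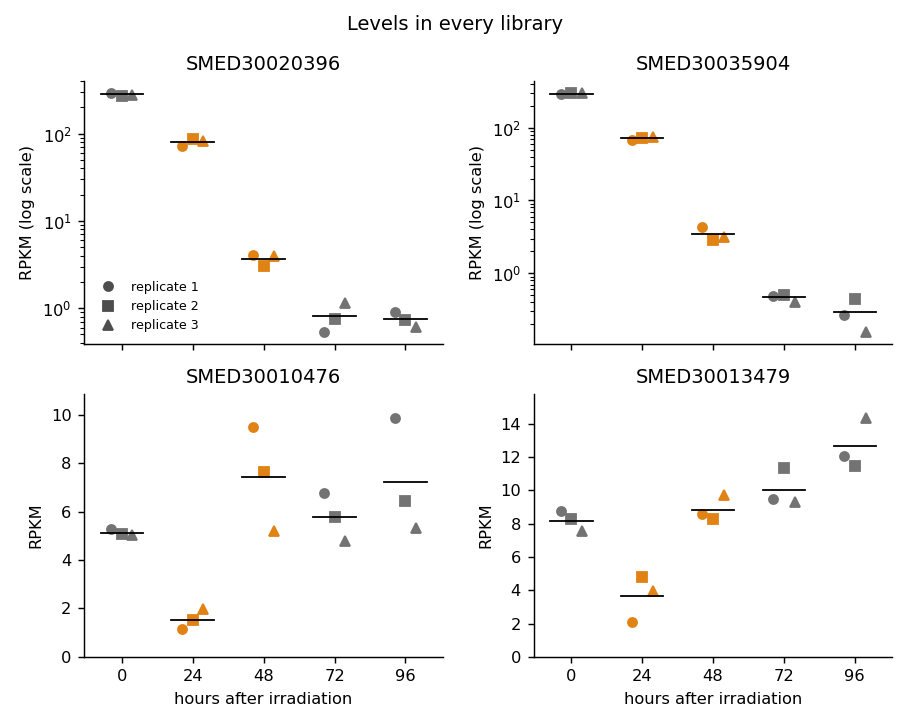
Levels (RPKM) of the 2 models with the largest falls (top, log scale) and the 2 with the largest rises (bottom, linear scale from 0) in each of the 15 libraries, by hours after irradiation. Symbols mark the replicate, orange the 24 and 48 h libraries that are compared, and horizontal lines the means of 3 libraries. The falling models drop further after 48 h, whereas the rising models are lowest at 24 h.

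All 13 models that rose at least 2-fold had their lowest mean of the 5 times at 24 h. They were chosen for a level at 24 h well below that at 48 h, which favours a low point at 24 h. Their 24 h means were 30% to 94.0% of the 0 h mean and their 48 h means 99.4% to 235%, with medians of 51.6% and 116%. Folds over 24 h ran from 2.05 to 4.85 with a median of 2.22. Against 0 h, which shares no library with the comparison, 10 of the 13 were called higher at 96 h (limma). Of all described models 46.9% were called between these times, 24.5% higher and 22.4% lower. The models were longer than most, with a median of 2091 bases. In 12 of the 13 the lowest 24 h value was that of replicate 1, and in 12 of the 13 the highest 48 h value was that of replicate 3. The count depended on single libraries. With 24 h replicate 1 left out it was 3, with replicate 2 of that time 31 and with replicate 3 of that time 21. Omission of 48 h replicate 1 gave 23, of replicate 2 of the same time 20 and of replicate 3 of that time a count of 9.

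The wider group of 208 models with rises of at least 1.5-fold moved in the same way. Their median level went from 11.03 RPKM in unirradiated worms to 6.997 by 24 h, 12.54 by 48 h, 11.4 by 72 h and 14.1 RPKM by 96 h. The group took 1.502%, 1.522% and 1.518% of reads in the 0 h libraries, 0.8314%, 0.9821% and 0.9845% at 24 h and 1.4%, 1.461% and 1.766% at 48 h. The 24 h shares lay below all others, with replicate 1 the lowest, and 48 h replicate 3 was the highest of its time. The models were chosen for being lower at 24 h than at 48 h, so the shares at these times follow in part from the choice. Models that entered only through the 48 h libraries were not set apart among the 208. In 151 of the 208 models replicate 1 held the lowest 24 h value, and in 170 replicate 3 held the highest at 48 h. With both of these libraries left out, 100 models rose at least 1.5-fold and 8 at least 2-fold, while 23 fell at least 2-fold and 10 at least 8-fold. The 2 were picked for their extreme values, and the omission leaves 2 libraries a time and 1407 calls in all, so their own part in the rises was not tested. At 72 h 20 of the 208 were called higher than at 0 h and 28 lower, where 45.4% of all described models were called, 23.8% higher and 21.6% lower. At 96 h 88 were higher (42.3%) and 12 lower (5.77%).

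The 51 models with falls of 1.5- to 2-fold stood otherwise against 0 h than the larger falls. Both groups were chosen by their fall from 24 h, so their 24 and 48 h levels follow in part from that choice. Models that entered only through the 24 h libraries were not set apart among the 51. Their median level was 3.975 RPKM in unirradiated worms, 3.45 by 24 h, 1.965 by 48 h and 2.06 RPKM by 96 h. Relative to 0 h, model by model, the median change was 0.40 at 24 h and -0.34 at 48 h, where the 23 larger falls had medians of -1.23 and -4.34. At 96 h 24 of the 51 were called lower than at 0 h (47.1%) and 2 higher (3.92%), against 22.4% and 24.5% of all described models.

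The models called in the second day were followed in the 0, 72 and 96 h libraries, whose levels do not enter the change from 24 to 48 h. Among the 1377 models that fell, 964 (70.0%) were called lower in the 96 h libraries than in the unirradiated ones and 110 (7.99%) higher. Among the 1478 that rose, 867 (58.7%) were called higher in that comparison and 124 (8.39%) lower. Over all 19647 described models these shares were 22.4% lower and 24.5% higher, and over the 16792 not called between 24 and 48 h they were 19.7% and 22.9%. The median change at 96 h against 0 h was -0.35 for the lower group, 0.23 for the higher group and 0.05 for all described models. These calls share 1 estimate of each model's spread over all 15 libraries, and a model with little spread or many reads is more readily called in any comparison. The lower and higher groups had medians of 4839 and 4026.5 reads over the 6 libraries, against 1304 for all described models. To separate the estimates, each pair of times was also fitted on its own 6 libraries with limma. The 24 and 48 h libraries alone gave 2234 calls (11.4% of all described models), of which 1149 were higher (5.85%) and 1085 lower (5.52%). The 0 and 96 h libraries alone called 45.1% of all described models, 23.5% higher and 21.6% lower. Of the 1085 lower models 732 (67.5%) were lower at 96 h and 81 (7.47%) higher, and of the 1149 higher models 719 (62.6%) were higher and 96 (8.36%) lower.

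Between 72 and 96 h, again with no shared library, 309 of the 1377 lower models were called lower (22.4%) and 1 higher. Of the 1478 higher models, 193 were called higher (13.1%) and 17 lower. Over all described models 5.57% were called in that interval, 4.03% lower and 1.54% higher. The medians were -0.09 for the lower group, 0.11 for the higher group and -0.01 for all. With the times fitted on their own libraries, 3.24% of all described models were called between 72 and 96 h, 2.26% lower and 0.972% higher. Of the 1085 models 154 (14.2%) were then lower, and of the 1149 models 129 (11.2%) were higher and 6 lower. The lower group together took 11.89% ± 0.035 of reads in unirradiated worms and, from 24 to 96 h in turn, 11.88% ± 0.0973, 10.05% ± 0.192, 9.35% ± 0.0645 and 8.77% ± 0.0628 (SD, n = 3 each). The higher group took 13.2% ± 0.0985 in unirradiated worms and then 11.5% ± 0.184, 14.1% ± 0.534, 13.75% ± 0.726 and 15.3% ± 0.14. The shares at 24 and 48 h follow from the choice of the models, while those at 0, 72 and 96 h do not.

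**Figure D4:**
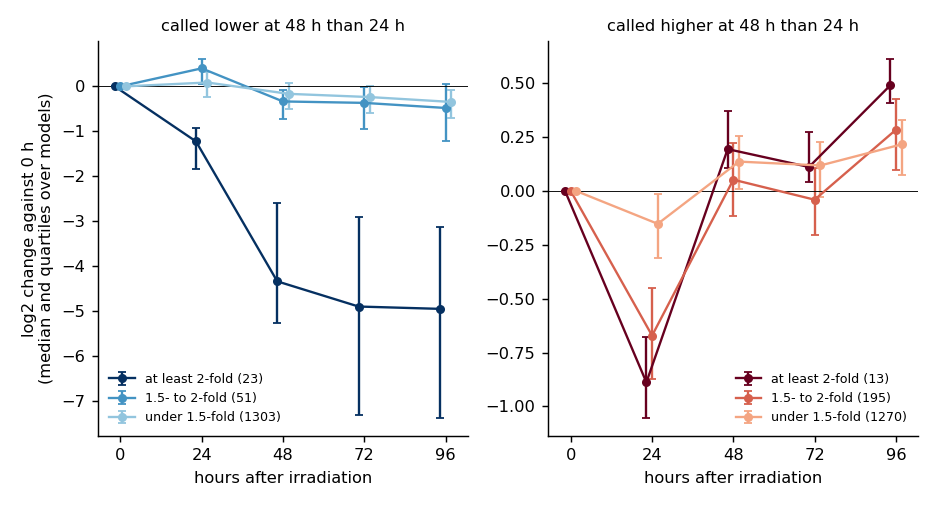
Median log2 change against 0 h (log2(RPKM + 0.5) scale) of the models called lower (left) or called higher (right) at 48 h than at 24 h, split by the size of that change, with bars for the quartiles over models and the number of models in brackets. The vertical scales differ between the panels. The 23 large falls reach a median of -4.34 at 48 h, while the rising groups start below 0 at 24 h and lie above it at 96 h.

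Whether the second day differed from the following days was tested directly, as the difference of the daily changes. Against the third day (48 to 72 h), 460 models (2.34%) differed at a limma adjusted p below 0.05. In 370 of them (1.88% of all described models) the second day was the more positive, with a median change of 0.45 in the second day and -0.17 in the third. In the other 90 (0.458%) it was the more negative, with medians of -0.39 and -0.01. Both changes use the 48 h libraries, and the count was 87 without 48 h replicate 3 and 271 without 48 h replicate 2.

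Against the fourth day (72 to 96 h), which shares no library with the second, 397 models (2.02%) differed. The second day was the more positive in 260 (1.32%), with medians of 0.19 and -0.17, and the more negative in 137 (0.697%), with medians of -0.38 and -0.02. Without 48 h replicate 1 the count was 246 and without 48 h replicate 2 it was 230. By size, the median absolute change of a model was 0.11 on the log2 scale in the second day, 0.08 in the third and 0.09 in the fourth.

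The direction of the calls went with the level of expression, though less so under quantile normalization. Among models under 2 RPKM, with a median of 127 reads over the 6 libraries, 2.14% were called, and above 100 RPKM, with a median of 31020 reads, 31.7% were. Rises made up 60.4% of the calls between 5 and 20 RPKM (653 of 1082), 44.9% between 20 and 100 RPKM and 35.0% above 100 RPKM (113 of 323). The 208 rises of at least 1.5-fold were most often models of 5 to 20 RPKM, with 102 in that range and 8 above 100 RPKM. The 74 falls of that size were spread otherwise, with 20 models under 2 RPKM, 23 between 2 and 5 RPKM, 8 between 5 and 20 RPKM and 8 above 100 RPKM. Models above 100 RPKM deviated from their 6-library mean by medians of -0.001, 0.03 and 0.005 in the 24 h libraries and -0.001, 0.019 and -0.049 in those at 48 h, so that 48 h replicate 3 was the lowest. Without that library 63.3% of the calls between 5 and 20 RPKM and 40.2% of those above 100 RPKM were rises. With quantile normalization the share of rises was 55.9% between 5 and 20 RPKM, 49.6% between 20 and 100 RPKM and 46.7% above 100 RPKM. The last of these came from 162 rises and 185 falls.

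The direction of the calls also went with the length of the model. Rises made up 37.3% of the calls among models under 500 bases (69 of 185) and 37.2% between 500 and 1000 bases. The share was 49.1% between 1000 and 2000 bases, 64.6% between 2000 and 4000 and 74.6% from 4000 bases up (153 of 205). The order was also seen within each of the 5 levels, although under 2 RPKM the models from 2000 bases up gave only 10 rises and 3 falls. Between 5 and 20 RPKM 43.9% of the calls under 1000 bases and 71.1% of those from 2000 bases up were rises, and above 100 RPKM these shares were 25.3% and 53.6%. When single libraries were left out, the share ran from 34.9% to 41.8% under 500 bases and from 71.8% to 84.2% from 4000 bases up. Under limma-voom it was 30.4% and 63.6%. The shift was small in size, with a median change of -0.01 under 500 bases and 0.04 from 4000 bases up. Models of the latter kind deviated from their 6-library mean by medians of -0.014, -0.022 and -0.017 in the 24 h libraries and 0.006, -0.011 and 0.062 in those at 48 h, the last being replicate 3. Without that library the median change from 4000 bases up was 0.01. The part that RNA quality may have in this was not tested.

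**Figure D5:**
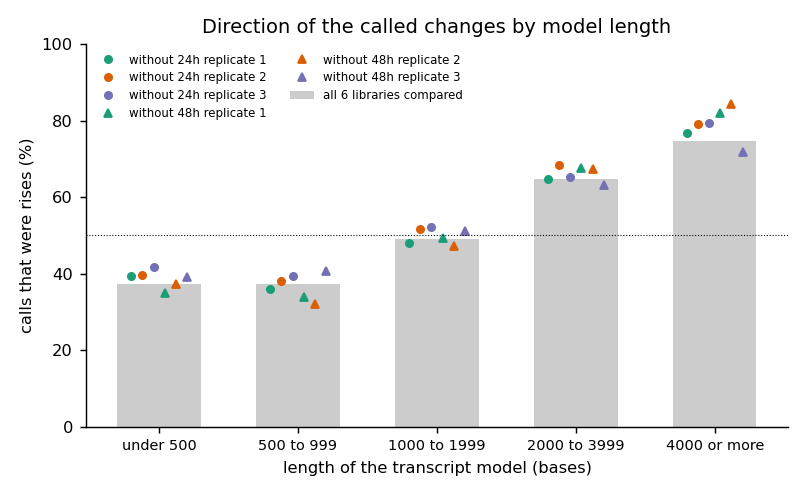
Bars give the percentage of called models that were higher at 48 h than at 24 h, by length of the model in bases, and points give it with 1 library left out (circles for 24 h, triangles for 48 h). The share climbs from 37.3% in the shortest class to 74.6% in the longest and keeps this order of the end classes with each library left out.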

How the data were processed

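The authors deposited RPKM values for 26671 transcript models in 15 libraries, 3 at each of 5 times. CASAVA 1.8.2, Bowtie and edgeR are listed, with no role or order, per the submitters' processing notes. Which transcript set was mapped to, with which settings, whether strand was used and how reads matching several models were counted is not given in the sources used here. Models that are near-identical, overlapping or antisense may share reads. Each RPKM value is divided by a size for its library that was close, but not equal, to the reads worked out for it. The ratio of this size to the reads was 1.027, 0.9903 and 1.0033 at 24 h and 1.0051, 0.9864 and 0.9903 at 48 h. The origin of the difference is not given in the sources used here.

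Whole reads and lengths were worked out from the steps of the values. All 26671 models came out at whole reads within a tolerance of 0.001 reads. The steps of 1136 models under 0.5 RPKM in every library set the relative depths. RPKM + 0.5 was log2-transformed with no further scaling. All 15 libraries entered 1 linear model with a term for each time (limma 3.58.1, R 4.3.3), and variances were moderated towards their trend over level. Contrasts were two-sided, with Benjamini-Hochberg adjustment over the 19647 described models. The alternatives were other pseudocounts, filters and scalings, fits to the 6 libraries of a pair of times, limma-voom on the reads, a replicate block and the omission of libraries. The procedures were checked on simulated reads, drawn independently for each model and library. These held no deviation common to many models of a library, so the check cannot speak to such deviations.

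The members, lists and tests were chosen with earlier results of these data known. By ID the text names the 2 steepest falls and the 2 steepest rises, among called models whose values did not overlap between the times and whose mean reached 5 RPKM at the time of the higher level. Others are given by rank. Gene lists were not tested, since the deposited IDs come without names. Python 3.11.15, numpy 2.4.6, pandas 2.3.3 and matplotlib 3.10.9 were also used.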

Additional observations from a re-analysis of the deposited data

Results flagged for a closer look

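Each result here stood out because the change of a model from 24 to 48 h differed from its change on a later day in a direct limma contrast (adjusted p below 0.05). For SMED30020396 the second day was more negative than the third by -2.58 on the log2 scale (SE 0.25, adjusted p = 0.000139) and than the fourth by -4.22 (SE 0.20, adjusted p = 5.71e-09). For SMED30035904 these differences were -2.18 (SE 0.22, adjusted p = 0.000139) and -3.89 (SE 0.18, adjusted p = 2.94e-09). For SMED30010476 the second day was the more positive, by 2.26 against the third (SE 0.38, adjusted p = 0.00622) and by 1.68 against the fourth (SE 0.31, adjusted p = 0.0101). These models were chosen for the size of their second-day change, so the p-values describe the fit and are no independent test that the days differ. For SMED30013479 the differences of 1.07 and 0.92 did not pass (adjusted p = 0.113 and 0.094). On the log2(RPKM + 0.5) scale a model already low at 48 h has little room to fall on a later day, which bears on the size of the differences of the falling models.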

How the results depend on the processing

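The 2 named falls kept their direction and call from 24 to 48 h under all alternatives run, between -4.43 and -4.03 on the log2 scale, and so did the 2 named rises, between 0.87 and 2.22. Leaving out single libraries, or 24 h replicate 1 and 48 h replicate 3 together, gave 1407 to 2287 calls, 724 to 1175 of them higher and 683 to 1112 lower. Over the same omissions the rises of at least 1.5-fold numbered 100 to 238 and those of at least 2-fold 3 to 31. The falls numbered 58 to 78 at 1.5-fold, 21 to 25 at 2-fold and 10 to 11 at 8-fold. Models whose second day differed from the third numbered 70 to 411, and from the fourth 230 to 410. The omission of both libraries was chosen after seeing the data, as were the splits of the calls by length and level.

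With limma-voom 2073 models were called lower. That fit took the summed reads as the size of each library, and its median change was -0.017, against 0.0004 in the main fit. At 1.5-fold 121 fell, at 2-fold 44 fell and 26 rose, and the day contrasts gave 928 and 806 models. With a minimum of 5 RPKM 33 models fell 1.5-fold and 15 fell 2-fold. A pseudocount of 0.1 RPKM gave 21 rises and 36 falls of 2-fold, and one of 1 RPKM gave 8 such rises. The changed values for SMED30013479 were its differences from the third and the fourth day, called with limma-voom (1.15 and 0.94) and without 24 h replicate 2 (1.28 and 1.14). The cause of these shifts was not tested. With each pair of times fitted on its own 6 libraries, a choice made after seeing the data, 14.2% of the models that fell were also lower at 96 h than at 72 h, where the joint fit gave 22.4%. The fit to only the 6 libraries holds no later days and gave no day contrast.

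Same-numbered libraries at 24 and 48 h deviated together with correlations of 0.049, 0.072 and 0.032 across models, and each correlated best with its own number, which is a hint from the data and not from the design. All were under 0.1, so the numbers were not taken to pair the libraries. With the replicate number as a block 2743 models were called, 1424 higher and 1319 lower, and the block changed no named call. Models under 2 RPKM had a median of 127 reads over the 6 libraries and a median SE of 0.195, so small changes were not detectable there at this depth.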
